A study of Homo sapiens with 11 samples.

Results

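The collagen genes were followed over 3 times of a long cardiomyocyte culture. They were taken as the rows of the count table whose symbol was COL, a number, A and a number, which gave 41 of 19990 genes. COL6A5, COL20A1 and COL22A1 had no such row and were not analysed here. The cells were cardiomyocytes derived at passage 63 from the established human iPSC line WTC11 (iPSC, induced pluripotent stem cell), and the wells of all 3 days came from 1 differentiation on Matrigel-coated plates. All wells had received the GSK3 inhibitor CHIR99021 (6 to 12 µM, set for this line), then the Wnt secretion inhibitor IWP2 (5 µM), and were kept in RPMI1640 with B27 and insulin until collection. Sister wells were checked at Day 16 for the share of cells with cardiac troponin T. Wells were collected at Day 30 (4 wells), Day 60 (3 wells) and Day 113 (4 wells), with no treatment other than time. Wells of 1 differentiation of 1 line stand for no other differentiation or line, and the effects of day and of collection cannot be told apart.

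Collagens are proteins of 3 chains wound into a triple helix, and each chain is the product of its own gene. Fibrillar collagens (types I, II, III, V, XI, XXIV and XXVII) form the banded fibrils of connective tissue, with type I and type III prevailing in the heart and type II in cartilage. Type IV forms the sheet of the basement membrane that surrounds each heart muscle cell and lies under endothelium and epithelium. Types XV and XVIII join that sheet to its surroundings, and type VII anchors it. Type VI forms beaded filaments around cells, and the fibril-associated collagens (types IX, XII, XIV, XVI, XIX and XXI) lie on or between fibrils. In the heart, fibroblasts are the known main source of fibrillar collagen, while several cell types make type IV. In bulk RNA of a well, fewer cells of a type and less RNA per cell cannot be told apart.

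The 6 genes of type IV lie in 3 pairs that start back to back and run in opposite directions, so each pair has 1 stretch of DNA between its RefSeq start sites. These stretches are shown because the partners share them and the values of both partners are compared below. They are RefSeq promoter sequences of GRCh38.p14, plus strand, 5′ to 3′, with CCAAT and GGGCGG or their reverse complements (ATTGG and CCGCCC) in capitals.
COL4A1 and COL4A2, chr13:110307158-110307283: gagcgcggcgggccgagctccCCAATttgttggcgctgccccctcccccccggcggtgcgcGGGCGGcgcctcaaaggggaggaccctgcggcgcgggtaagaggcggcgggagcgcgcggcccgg
COL4A4 and COL4A3, chr2:227164374-227164623: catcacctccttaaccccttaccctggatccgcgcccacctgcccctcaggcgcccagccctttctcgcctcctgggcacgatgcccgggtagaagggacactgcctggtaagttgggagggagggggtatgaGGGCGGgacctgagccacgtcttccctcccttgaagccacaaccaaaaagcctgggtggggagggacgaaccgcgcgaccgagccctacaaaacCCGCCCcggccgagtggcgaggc
COL4A6 and COL4A5, chrX:108439588-108439837: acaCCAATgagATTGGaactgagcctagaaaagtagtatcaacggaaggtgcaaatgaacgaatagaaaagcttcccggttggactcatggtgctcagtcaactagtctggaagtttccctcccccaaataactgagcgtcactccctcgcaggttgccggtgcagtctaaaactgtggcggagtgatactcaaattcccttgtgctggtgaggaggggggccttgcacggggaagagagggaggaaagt
The RefSeq starts lie 127, 419 and 380 bp apart, and the first stretch is complete while the others are the 250 bases before the start of COL4A3 and of COL4A5. The gene coordinates given below are from GENCODE v29 and differ. There COL4A1 and COL4A2 overlap (gap -1421 bp), and the gaps are 112 bp for COL4A4 and COL4A3 and 347 bp for COL4A6 and COL4A5. Between the starts, GC content was 80.2% for COL4A1 and COL4A2, 70.1% for COL4A4 and COL4A3 and 48.5% for COL4A6 and COL4A5, beside a median of 58.7% over 35116 RefSeq promoter windows. Those windows run from 250 bases before to 50 after a start, and on either strand 34.6% of them held CCAAT, 45.0% GGGCGG and 11.5% TATAAA. The table held 44 windows of 32 of the 41 collagen genes, and per window 14 (31.8%) held CCAAT, 24 (54.5%) GGGCGG and 8 (18.2%) TATAAA. The genes without a window, which these shares do not cover, were COL1A1, COL1A2, COL2A1, COL3A1, COL5A2, COL6A1, COL8A1, COL9A3 and COL14A1. No matches in the printed stretches overlap each other, and a match is a run of letters, not a site.

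Each library held 24.1 to 34.5 M counts (M, units of 1000000). For pairs of wells of 1 day, chi-square over its degrees of freedom lay between 11.7 and 88.7, far above the 1 of pure counting noise, so each well was counted as a sample. TNNT2, which encodes cardiac troponin T, was read at 2881, 2577, 2260.0 and 3273 counts per 1000000 counts (CPM) at Day 30, 3206, 3236 and 2536 CPM at Day 60 and 3681, 5816, 3854 and 3985 CPM at Day 113, so the labelled cell type had its defining marker in every well. The 8 cardiomyocyte markers, TNNT2 among them, summed to 29955 to 41339 CPM at Day 30, 36952 to 41814.5 at Day 60 and 31690 to 35284 at Day 113. Their median log2 fold change from Day 60 to Day 113 was -0.26, so TNNT2 does not stand for the set. RNA markers of other cell types were present too and moved between days. The 8 endothelial markers summed to 58.5 to 79.8 CPM at Day 30, 40.6 to 65.9 at Day 60 and 207 to 842 at Day 113, and all 8 rose from Day 60 to Day 113. The 7 endoderm and hepatic markers summed to 448 to 1324 CPM at Day 30, 47.1 to 56.6 at Day 60 and 11.7 to 42.1 at Day 113, and all 7 fell from Day 30 to Day 60. The 7 measured fibroblast markers summed to 325 to 678, 266 to 295 and 307 to 514 CPM. For the 6 measured smooth muscle and pericyte markers the sums were 666 to 824, 678 to 790 and 800 to 1148 CPM. Those of the 7 epicardial markers were 105 to 152, 160 to 213 and 199 to 278 CPM. The part of all these markers in the collagen results was not tested.

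Collagen transcripts made up 1.27 ± 0.260%, 0.748 ± 0.135% and 1.54 ± 0.511% of all counts at Day 30, Day 60 and Day 113. Here and below, means carry the SD over 4, 3 and 4 wells, and log2 fold changes their standard error (SE). Given per well, in the order of the replicate numbers used throughout, the shares were 1.17, 1.53, 1.42 and 0.954% at Day 30, 0.837, 0.815 and 0.594% at Day 60 and 2.13, 1.18, 1.80 and 1.05% at Day 113. Each Day 60 well lay below all wells of the other days, while Day 30 and Day 113 overlapped. To compare levels between genes, CPM was divided by the length of a gene's annotated exons in kb, and on that scale COL3A1 stood first and COL1A1 second on each day, at 326 and 171 CPM per kb at Day 30, 192 and 82.2 at Day 60 and 532 and 313 at Day 113. The order below them changed with the day. COL1A2 (127), COL18A1 (123) and COL2A1 (103) followed at Day 30, COL18A1 (67.8) and COL4A2 (67.7) at Day 60, and COL1A2 (189), COL4A1 (89.1) and COL4A2 (79.5) at Day 113. The 11 fibrillar genes gave 61.8 ± 6.46%, 53.7 ± 2.82% and 69.2 ± 4.28% of collagen CPM per kb at Day 30, Day 60 and Day 113 (SD, n = 4, 3 and 4). The 6 type IV genes gave 16.4 ± 2.55%, 18.8 ± 1.30% and 12.1 ± 1.27% over the same wells. The 7 genes of the collagens typical of cartilage (types II, IX, X and XI, which cross the other classes) went from 8.79 ± 1.70% to 6.94 ± 1.54% and 1.62 ± 1.11%. COL2A1 carried most of that class at Day 30, with 103 ± 12.7, 25.2 ± 2.99 and 4.55 ± 1.52 CPM per kb on the 3 days, while the other 6 genes together stood at 12.6 ± 3.16, 29.2 ± 8.55 and 17.8 ± 9.69. These orders and shares depend on the division by exon length, which is 19.3 kb for COL4A2 and 6.81 kb for COL3A1. In CPM without that division, COL4A2 averaged 1787 at Day 30, above COL1A1 (1681) and below COL3A1 (2221). At Day 60 it averaged 1307, beside 1305 for COL3A1 and 807 for COL1A1, and at Day 113 1534, below both (3623 and 3076). The type IV genes summed to 3438, 2384 and 3127 CPM of 12740, 7547 and 15244.5 for all collagen genes.

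**Figure D1:**
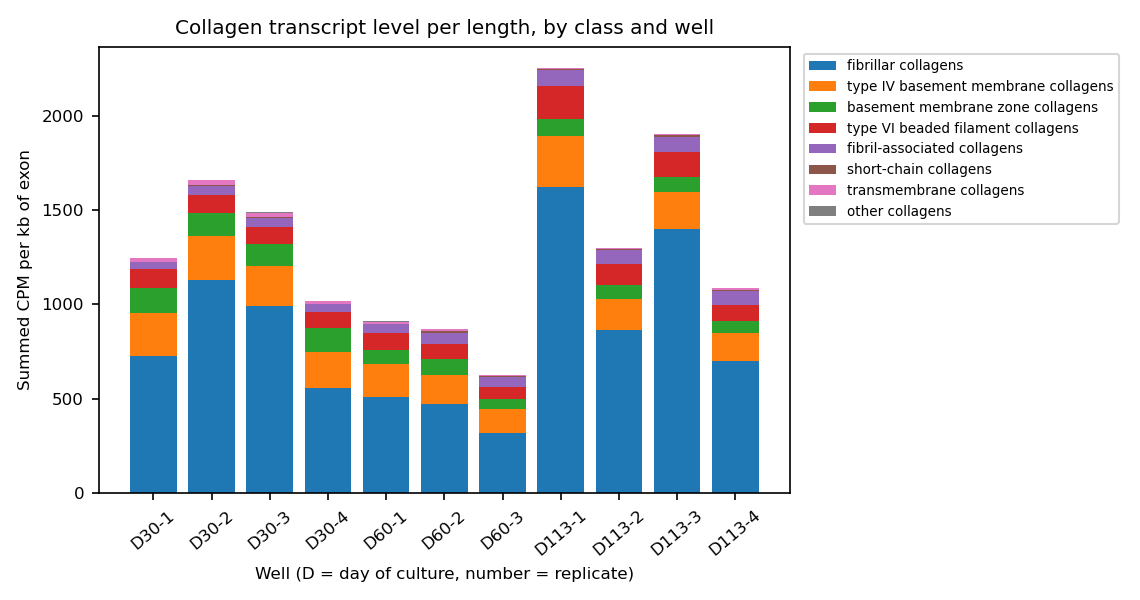
Stacked bars give the collagen CPM per kb of exon in each of the 11 wells (D, day; the number after the hyphen, replicate), coloured by collagen class, on a linear axis from 0. Fibrillar genes are the largest class in every well, and the 3 Day 60 bars are the lowest, at 627 to 909 CPM per kb.

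Between Day 30 and Day 60, 13 of the 41 collagen genes passed an adjusted p under 0.05 in edgeR's quasi-likelihood test (10.3% of all 19990 genes passed), 5 higher (4.39% of all genes) and 8 lower (5.91%). Wells did not overlap between these days for 23 collagen genes (24.8% of all genes), 9 higher (10.7%) and 14 lower (14.1%). Between Day 60 and Day 113, 21 passed (24.0% of all genes), 15 higher (12.9%) and 6 lower (11.1%), and wells did not overlap for 22 (30.6%), 15 higher (16.2%) and 7 lower (14.4%). Between Day 30 and Day 113, the whole course, 23 passed (34.5%), 12 higher (17.3%) and 11 lower (17.2%), and wells did not overlap for 21 (35.1%), 9 higher (17.1%) and 12 lower (18.0%). The median log2 fold change of the 41 genes was -0.27, 0.34 and 0.24 in the 3 comparisons, beside -0.01, 0.00 and -0.02 for all genes. The comparisons share wells, and Day 60 enters the first and the second with opposite sign. These shares of all genes also stand beside the class counts given below, some of which lie near them.

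Calls in both intervals gave 3 courses, as 3 genes fell and then rose (COL1A2, COL5A1 and COL12A1), 2 rose at both steps (COL16A1 and COL19A1) and 1 fell at both (COL2A1). In all, 30 genes were called in at least 1 comparison. The 11 called in none were COL4A2, COL5A2, COL6A1, COL8A1, COL9A1, COL10A1, COL11A2, COL13A1, COL24A1, COL27A1 and COL28A1. COL11A2 is uncertain, because a second row with the same symbol and a copy suffix held 3188 counts over the 11 libraries against 195 for the row used here.

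**Figure D2:**
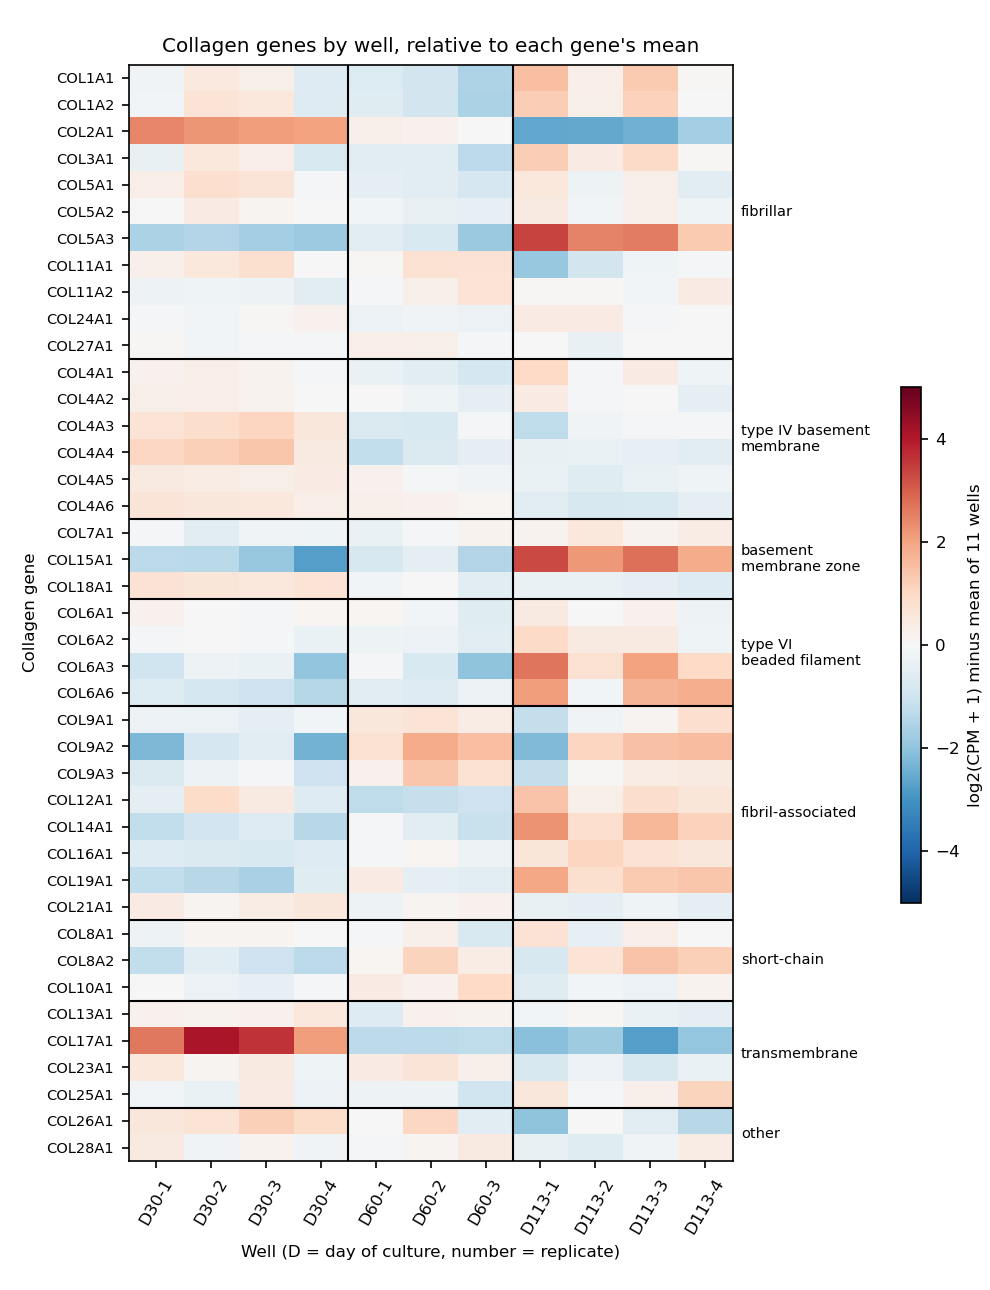
Each row is 1 of the 41 collagen genes, grouped by class, and each column 1 of the 11 wells (D, day; number, replicate); colour gives log2(CPM + 1) minus the gene's mean over the wells. COL2A1 and COL17A1 are high at Day 30, and COL5A3, COL15A1 and COL6A3 are high at Day 113.

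**Figure D3:**
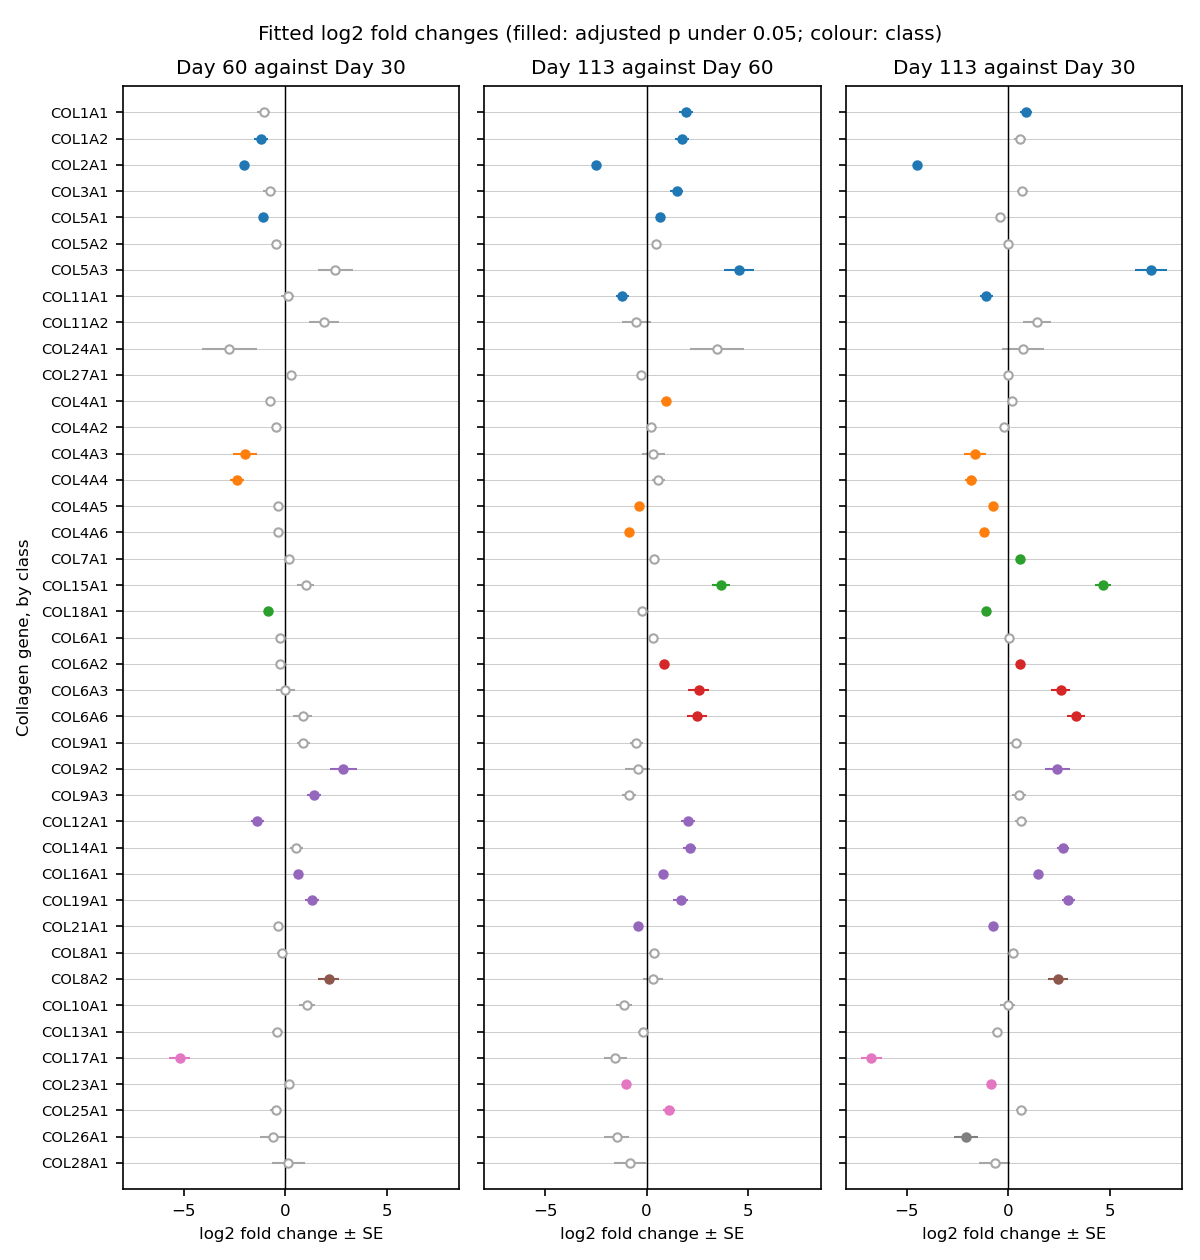
Points give the fitted log2 fold change of each collagen gene with its standard error in the 3 comparisons, on 1 shared linear axis; filled points passed an adjusted p under 0.05 and are coloured by class, open grey points did not. Most filled points lie left of 0 for Day 60 against Day 30 (8 of 13) and right of 0 for Day 113 against Day 60 (15 of 21).

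The genes of types I and III, the main fibrillar collagens of the heart, were on average lowest at Day 60 and highest at Day 113. Over the whole course only COL1A1 of these genes passed. Of the 11 fibrillar genes, 3 fell and 0 rose from Day 30 to Day 60, 5 rose and 2 fell from Day 60 to Day 113, and 2 rose and 2 fell over the whole course. The shares called were 27.3%, 63.6% and 36.4%, beside 10.3%, 24.0% and 34.5% of all genes. The median log2 fold change of the fibrillar genes was -0.77 for the first interval and 0.67 for the second.
COL1A1 (chromosome 17, 50183289 to 50201632, minus strand, GRCh38), which encodes the alpha1 chain of type I collagen, was read at 1417, 2284, 1993 and 1031 CPM at Day 30, 1004, 856 and 560.2 CPM at Day 60 and 4576, 2059, 3978 and 1691 CPM at Day 113. Its Day 60 wells lay below every well of Day 30 and of Day 113, while Day 30 and Day 113 overlapped. The log2 fold change was -1.06 ± 0.33 (SE) for Day 60 against Day 30, which did not pass (adjusted p 0.051), and 1.93 ± 0.34 for Day 113 against Day 60 (adjusted p 0.00081). The first change was called with the replicate block (adjusted p 0.0048), without Day 30 replicate 4 (0.026) or Day 113 replicate 1, 2 or 4 (0.024, 0.038 and 0.03) and in limma-voom (0.048). The rise over the whole course, 0.87 ± 0.30 (adjusted p 0.032), was lost without Day 30 replicate 1 or 4 or Day 113 replicate 1 or 3 (adjusted p 0.093, 0.097, 0.1 and 0.098), with robust dispersions (0.11) and in DESeq2 (0.061).
COL1A2 (chromosome 7, 94394561 to 94431232, plus strand), the gene of the other chain of type I, was read at 1112, 1988, 1757 and 797 CPM at Day 30, 813, 649 and 406 CPM at Day 60 and 2908, 1532, 2778 and 1231 CPM at Day 113. It had the same order of days, but the highest Day 60 well (813) was above the lowest Day 30 well (797). It fell by 1.18 on the log2 scale to Day 60 (SE 0.34, adjusted p 0.033) and then rose by 1.76 ± 0.34 (adjusted p 0.0017), a 3.39-fold change. The fall was lost without Day 30 replicate 2 or 3 or Day 60 replicate 2 or 3 (adjusted p 0.12, 0.093, 0.082 and 0.18) and with robust dispersions (0.14). Over the whole course COL1A2 changed by 0.58 ± 0.30 (adjusted p 0.16, not called).
COL3A1 (chromosome 2, 188974320 to 189012746, plus strand), the single chain of type III, which forms thin fibrils in elastic tissue, was read at 1712, 3138, 2744 and 1291 CPM at Day 30, 1515, 1514 and 885 CPM at Day 60 and 5128, 2907, 4201 and 2255 CPM at Day 113. All Day 113 wells lay above all Day 60 wells, and the Day 30 wells overlapped both. The change to Day 60 was -0.77 ± 0.30 (adjusted p 0.13, not called, and 0.017 with the replicate block), and the rise to Day 113 was 1.47 ± 0.31 (adjusted p 0.0031). Over the whole course COL3A1 changed by 0.71 ± 0.28 (adjusted p 0.061, not called, but called under 4 alternatives).
Markers of fibroblasts did not move in 1 direction. Of 7 measured, 1 rose and 3 fell from Day 30 to Day 60, 3 rose and 1 fell from Day 60 to Day 113, and none was at 0 over a whole day. POSTN, periostin, which binds collagen fibrils, went from 84.0 ± 7.22 CPM at Day 60 (SD, n = 3) to 195 ± 63.1 at Day 113 (SD, n = 4), and PDGFRA, a growth factor receptor, from 96.5 ± 7.70 to 32.3 ± 6.96 CPM. The part of these markers in the collagen values was not tested.
Type V collagen lies inside type I fibrils and limits their width, and its 3 genes took different courses. COL5A1, with 633 ± 163, 302 ± 40.2 and 481 ± 161 CPM on the 3 days (SD, n = 4, 3 and 4), fell to Day 60 (-1.07 ± 0.24, adjusted p 0.0082) and rose to Day 113 (0.67 ± 0.23, adjusted p 0.046). Without Day 60 replicate 3 the fall had an adjusted p of 0.059, and the rise was lost without Day 30 replicate 1 or 3, any 1 of the 3 Day 60 wells or Day 113 replicate 1 or 3 (0.056 to 0.17). The rise was also lost with upper-quartile scaling (0.065), DESeq2 size factors (0.052) and robust dispersions (0.098), in DESeq2 (0.084) and in limma-voom (0.055). COL5A2 passed in no comparison (419.9 ± 62.4, 307 ± 31.3 and 416 ± 95.2 CPM over the same wells).
COL5A3 (chromosome 19, 9959561 to 10010471, minus strand), the gene of the third type V chain, was read at 0.191, 0.300, 0.0987 and 0.0344 CPM at Day 30, 1.53, 1.14 and 0 CPM at Day 60 and 36.4, 19.0, 20.2 and 7.94 CPM at Day 113. Every Day 113 well was above every earlier well, and Day 60 replicate 3 had 0 counts. It rose by 4.56 ± 0.72 from Day 60 to Day 113 (adjusted p 0.00037) and by 7.03 ± 0.78 over the whole course (adjusted p 5.3e-06), the largest rise among the collagen genes in both comparisons. Its exons overlap an annotated antisense gene.
The 2 remaining fibrillar genes outside the cartilage-type list used here were COL24A1 and COL27A1, although both are of types found in developing cartilage and bone. COL27A1 stayed between 31.0 and 51.5 CPM in all 11 wells. COL24A1 was scarce, with 0, 3 and 0 counts in the Day 60 wells, 4 to 13 at Day 30 and 6 to 23 at Day 113. With 3 counts put in for each Day 60 library, Day 60 was 2.56-fold lower than Day 30 and 4.27-fold lower than Day 113. These folds are no lower bounds, because 3 counts were read in a Day 60 well and the other days also held few counts. Neither difference was called (adjusted p 0.24 and 0.076).

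Chains of 1 protein, 1 fibril or 1 membrane were compared within each library as log2 ratios of counts, which need no scaling between libraries. The ratio of COL1A1 to COL1A2 was 0.28 ± 0.098, 0.39 ± 0.080 and 0.51 ± 0.10 at Day 30, Day 60 and Day 113 (SD, n = 4, 3 and 4). All Day 113 wells were above all Day 30 wells (exact permutation p = 0.0286, the smallest possible, adjusted 0.0686). COL3A1 to COL1A1 was 0.38 ± 0.095 at Day 30, 0.69 ± 0.12 at Day 60 and 0.29 ± 0.20 at Day 113, and Day 60 was above Day 30 in every well (exact permutation p = 0.0286, adjusted 0.0686). COL4A1 to COL4A2 was -0.65 ± 0.041, -0.94 ± 0.031 and -0.28 ± 0.25 on those days. No 2 days overlapped, and Day 113 replicate 2 (-0.58) lay nearest to the Day 30 wells (-0.69 to -0.61). COL4A5 to COL4A1 was -1.70 ± 0.17, -1.33 ± 0.093 and -2.58 ± 0.56. None of the 12 comparisons passed after adjustment, and with these numbers of wells the exact test cannot give less than 0.0286 before it. After adjustment, a p at that floor passes only if many of the 12 tests reach it together. The lack of calls therefore does not show that the ratios were unchanged.

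Among the 6 type IV genes, COL4A3, COL4A4, COL4A5 and COL4A6 fell over the whole course, and COL4A1 and COL4A2, the pair of the common form of the basement membrane, did not pass. The difference between these genes over the whole course was tested only as the chain ratios above, with the limit given there. No type IV gene rose from Day 30 to Day 60 and 2 of 6 fell, from Day 60 to Day 113 1 rose and 2 fell, and over the whole course 0 rose and 4 fell. Wells of Day 30 and Day 60 did not overlap for any of the 6, with each gene lower at Day 60.
COL4A1 (chromosome 13, 110148963 to 110307233, minus strand) encodes the alpha1 chain of the widespread form and was read at 1169, 1265, 1141 and 983 CPM at Day 30, 803, 695 and 552 CPM at Day 60 and 2052, 965, 1359.9 and 879 CPM at Day 113. Day 60 was below both other days in every well, and Day 113 replicate 1 was the highest of all. The change to Day 60 was -0.74 ± 0.23 (adjusted p 0.051, not called) and the rise to Day 113 was 0.94 ± 0.23 (adjusted p 0.0074). The first was called with the replicate block and without Day 113 replicate 1 (adjusted p 0.0045 in each), without Day 113 replicate 2 or 4 (0.031 and 0.03) and in limma-voom (0.036). Over the whole course the value was 0.21 (adjusted p 0.49), and -0.09 without Day 113 replicate 1.
COL4A2 (chromosome 13, 110305812 to 110513209, plus strand), its partner across the GC-rich stretch shown above, was read at 1891, 1932, 1754 and 1570.3 CPM at Day 30, 1505, 1338 and 1079 CPM at Day 60 and 2022, 1438, 1549 and 1128 CPM at Day 113. It was called in no comparison, with log2 fold changes of -0.45, 0.23 and -0.22 (adjusted p 0.1, 0.34 and 0.29). Without Day 113 replicate 1, its fall was called both over the whole course (-0.38, adjusted p 0.035) and to Day 60 (-0.45, adjusted p 0.034). The latter was also called with the replicate block (-0.56, adjusted p 0.0058) and in DESeq2 (-0.44, adjusted p 0.047). The exons of COL4A2 overlap 2 antisense genes that have rows of their own in the table.
COL4A3 and COL4A4 encode chains of the kidney, lung and inner ear membranes and were the scarcest of the 6. COL4A4 (chromosome 2, 227002711 to 227164453, minus strand) was read at 8.33, 9.37, 10.9 and 5.08 CPM at Day 30, 0.894, 1.70 and 2.21 CPM at Day 60 and 2.48, 2.55, 2.42 and 2.13 CPM at Day 113. It was higher at Day 30 than on either later day in every well, with a log2 fold change of -2.39 ± 0.34 to Day 60 (adjusted p 0.0004) and -1.81 ± 0.30 over the whole course (adjusted p 0.00023).
COL4A3 (chromosome 2, 227164565 to 227314792, plus strand) was read at 3.55, 4.17, 4.90 and 3.19 CPM at Day 30, 0.702, 0.663 and 1.64 CPM at Day 60 and 0.173, 1.54, 1.71 and 1.68 CPM at Day 113. The gene was also highest at Day 30 in every well, at -1.97 ± 0.59 to Day 60 (adjusted p 0.043) and -1.64 ± 0.52 to Day 113 (adjusted p 0.023). The first call was lost without any 1 of the 4 Day 30 wells, Day 60 replicate 1 or 2 or Day 113 replicate 3 (adjusted p 0.05 to 0.16), and the second without Day 30 replicate 2 or 3 (0.051 and 0.063). The endoderm and hepatic markers fell over the same interval, as given above, and their part in the fall of both genes was not tested.
COL4A5 and COL4A6, the pair on chromosome X, encode chains of kidney and smooth muscle membranes, among others, and were lower on each later day. COL4A6 (chromosome X, 108155607 to 108439497, minus strand) was read at 163, 154, 153 and 133 CPM at Day 30, 125, 122 and 112 CPM at Day 60 and 70.6, 59.3, 61.8 and 74.2 CPM at Day 113. The 3 days did not overlap, with -0.34 ± 0.10 to Day 60 (adjusted p 0.052, not called), -0.85 ± 0.10 from Day 60 to Day 113 (adjusted p 4.7e-05) and -1.18 ± 0.10 over the whole course (adjusted p 2.8e-07). The first step lay at the threshold and was called under 8 alternatives, among them the omission of Day 30 replicate 4 (adjusted p 0.035) and of Day 113 replicate 1, 2 or 4 (0.046, 0.025 and 0.045).
COL4A5 (chromosome X, 108439844 to 108697545, plus strand) was read at 367, 346, 328 and 353 CPM at Day 30, 316, 261 and 236 CPM at Day 60 and 212, 177, 215 and 231 CPM at Day 113. Again no 2 days overlapped, and the changes were -0.36 ± 0.11 (adjusted p 0.057), -0.38 ± 0.11 (adjusted p 0.024, lost without Day 60 replicate 1 at 0.16) and -0.74 ± 0.11 (adjusted p 6.6e-05). For COL4A5 the first step was called with the replicate block (adjusted p 0.047), without Day 60 replicate 1 (0.037) or Day 113 replicate 2 (0.021), in DESeq2 (0.03) and in limma-voom (0.042).

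**Figure D4:**
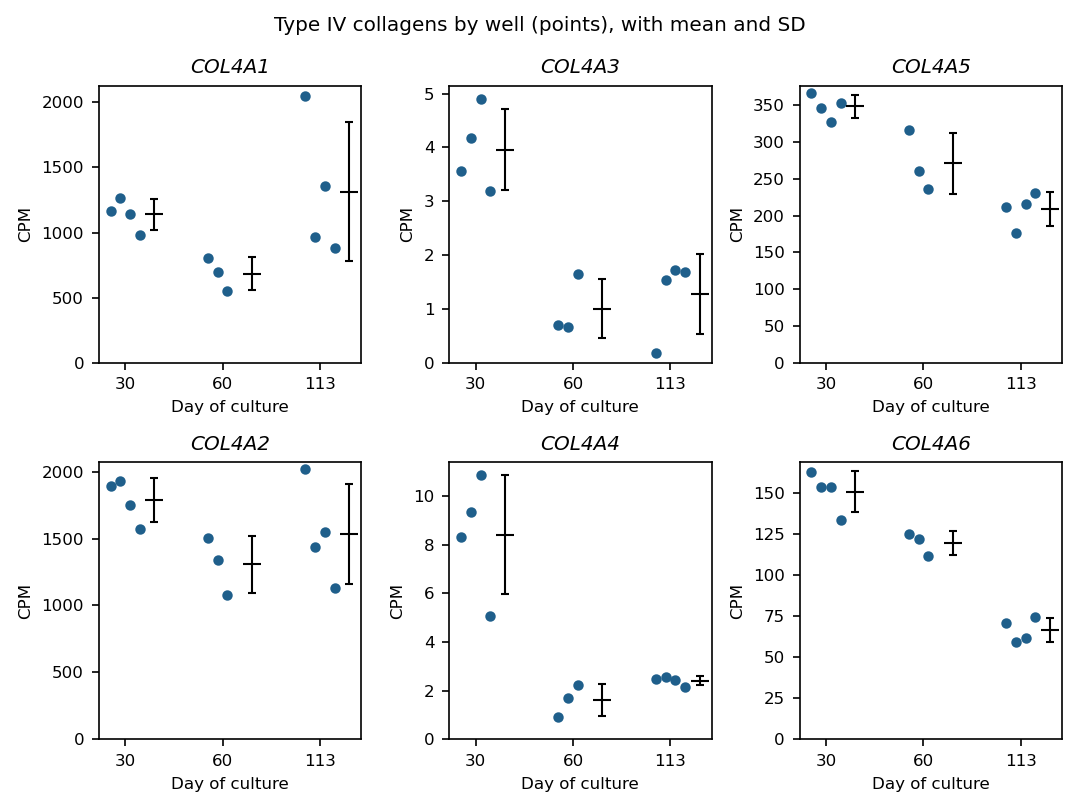
Points give CPM of the 6 type IV genes in each well by day of culture, 1 panel per gene on a linear axis from 0, with the mean and SD of each day (n = 4, 3 and 4). COL4A3 and COL4A4 drop between Day 30 and Day 60, COL4A5 and COL4A6 are lower on each later day, and COL4A1 and COL4A2 are lowest at Day 60.

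Of the other collagens of the basement membrane zone, type XV rose steeply and type XVIII fell. COL15A1 (chromosome 9, 98943179 to 99070792, plus strand), whose product is found around capillaries and muscle cells, was read at 5.50, 5.27, 3.23 and 1.37 CPM at Day 30, 8.07, 10.3 and 4.79 CPM at Day 60 and 157, 70.6, 105 and 56.0 CPM at Day 113. All Day 113 wells were at least 56.0 CPM and no earlier well was above 10.3 CPM. The rise was 3.66 ± 0.42 from Day 60 (adjusted p 2.9e-05) and 4.67 ± 0.40 over the whole course (adjusted p 3.8e-07), second only to COL5A3.
COL18A1 (chromosome 21, 45405137 to 45513720, plus strand), the source of the fragment endostatin, was read at 1120.2, 1033, 969 and 1075 CPM at Day 30, 621, 662 and 452 CPM at Day 60 and 537, 532, 494 and 429.6 CPM at Day 113. Day 30 was above both later days in every well, with -0.86 ± 0.13 to Day 60 (adjusted p 0.00055), -0.22 ± 0.13 from Day 60 to Day 113 (adjusted p 0.24, and 0.037 without Day 60 replicate 3) and -1.08 ± 0.12 over the whole course (adjusted p 5e-06). Its exons overlap those of SLC19A1 on the other strand, which is also in the table. COL7A1, the chain of anchoring fibrils, went from 28.5 ± 3.52 CPM at Day 30 (SD, n = 4) to 42.7 ± 5.36 at Day 113 (SD, n = 4), a rise of 0.58 ± 0.13 (adjusted p 0.0033).
Of 11 listed partners of type IV in the membrane (laminin, nidogen, perlecan, agrin and peroxidasin genes), 5 fell and 0 rose over the whole course (median log2 fold change -0.42), beside 17.2% and 17.3% of all genes. AGRN, the proteoglycan agrin, was read at 374, 484, 422 and 346 CPM at Day 30, 211, 216 and 173 CPM at Day 60 and 161, 209, 214 and 149 CPM at Day 113 and fell (-1.15 ± 0.14, adjusted p 1e-05). NID2, a nidogen that links laminin to type IV, went from 276 ± 39.2 to 142 ± 28.0 CPM (-0.96 ± 0.14, adjusted p 8.9e-05), and LAMA5, a laminin chain, from 432 ± 61.2 to 237 ± 17.1 CPM (-0.87 ± 0.11, adjusted p 1.8e-05).
Endothelial markers rose over the interval in which COL15A1, COL4A1 and several fibrillar genes rose. PECAM1, a junction protein of endothelium, was read at 18.1, 19.3, 17.3 and 10.0 CPM at Day 30, 8.71, 13.4 and 10.3 CPM at Day 60 and 347, 143, 169 and 84.5 CPM at Day 113, and VWF, von Willebrand factor, at 0.878, 1.50, 2.34 and 1.10 CPM at Day 30, 0.255, 3.24 and 0.315 CPM at Day 60 and 117, 25.0, 49.6 and 20.4 CPM at Day 113. Day 113 replicate 1 had the highest sum of the 8 markers (842 CPM against 344, 385 and 207) and also the highest COL15A1, COL4A1, COL1A1 and COL3A1 of its day. Without that well the log2 rise from Day 60 to Day 113 was 3.33 for COL15A1, 0.64 for COL4A1, 1.68 for COL1A1 and 1.26 for COL3A1 (adjusted p 2.1e-05, 0.0093, 0.0012 and 0.0058). None of the 8 markers was at 0 over a whole day, and their part in these rises was not tested.

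COL6A2, COL6A3 and COL6A6 of type VI rose from Day 60 to Day 113, and COL6A1 passed in no comparison. No gene of the 4 passed from Day 30 to Day 60, and 3 rose from Day 60 to Day 113 and over the whole course, with a median log2 fold change of 1.67 in that second interval. COL6A3 (chromosome 2, 237324003 to 237414375, minus strand), the long alpha3 chain, was read at 38.9, 65.1, 62.1 and 19.0 CPM at Day 30, 75.3, 45.6 and 18.9 CPM at Day 60 and 500.3, 135, 316 and 156 CPM at Day 113. All Day 113 wells exceeded all earlier ones, and the rise from Day 60 was 2.57 ± 0.52 (adjusted p 0.0022). For Day 60 against Day 30 its value was 0.01, with a sign that turned under 5 alternatives.
COL6A6, a chain thought to take the place of alpha3, was read at 1.60, 1.27, 1.05 and 0.584 CPM at Day 30, 1.91, 1.66 and 2.56 CPM at Day 60 and 16.9, 2.81, 12.8 and 13.6 CPM at Day 113. It rose by 2.49 ± 0.48 from Day 60 (adjusted p 0.0016), with Day 113 replicate 2 (2.81 CPM) just above the highest Day 60 well (2.56 CPM). Its Day 60 wells also lay above its Day 30 wells, a change that was not called (0.86, adjusted p 0.3).
COL6A2 was read at 218, 233, 229 and 185 CPM at Day 30, 197, 191 and 158 CPM at Day 60 and 464, 319, 324 and 204 CPM at Day 113, and COL6A1 at 286, 247, 232 and 263 CPM at Day 30, 259, 223 and 159 CPM at Day 60 and 337, 242, 288 and 206 CPM at Day 113. These genes lie 93047 bp apart on the same strand of chromosome 21, and their chains join alpha3 in equal number. COL6A2 rose (0.85 ± 0.19, adjusted p 0.0051), while COL6A1 did not pass (0.33 ± 0.17, adjusted p 0.17). The difference between the genes of type VI was not tested.

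Fibril-associated genes had the most calls for their number in the first interval, where 4 of 8 rose and 1 fell, and from Day 60 to Day 113 4 rose and 1 fell again. COL12A1 (chromosome 6, 75084326 to 75206051, minus strand), whose product binds type I fibrils in tissue under load, was read at 96.5, 259.6, 186 and 87.0 CPM at Day 30, 55.4, 61.3 and 65.9 CPM at Day 60 and 369, 165, 252 and 204 CPM at Day 113. Day 60 lay below all other wells, and the fall (-1.37 ± 0.33, adjusted p 0.013) and the rise (2.03 ± 0.34, adjusted p 0.00051) were both called. The fall was lost without Day 30 replicate 2 or Day 60 replicate 1 or 3 (adjusted p 0.051, 0.067 and 0.053) and with robust dispersions (0.089).
COL16A1 (chromosome 1, 31652247 to 31704319, minus strand), made by fibroblasts and smooth muscle among others, was read at 76.1, 71.2, 70.3 and 75.7 CPM at Day 30, 115, 126 and 100.1 CPM at Day 60 and 179, 251, 195 and 177 CPM at Day 113. It climbed at both steps with no overlap between days, at 0.63 ± 0.12 (adjusted p 0.0034) and 0.82 ± 0.12 (adjusted p 0.00027), and the spread within a day was small.
COL19A1 (chromosome 6, 69866571 to 70209976, plus strand), a scarce chain of basement membrane zones in muscle and brain, was read at 2.37, 2.03, 1.58 and 4.23 CPM at Day 30, 9.48, 4.83 and 4.57 CPM at Day 60 and 29.3, 12.7, 18.6 and 19.5 CPM at Day 113. It also climbed at both steps (1.30 ± 0.35, adjusted p 0.024, and 1.67 ± 0.35, adjusted p 0.0028). The first call was lost without Day 30 replicate 1, 2 or 3 or Day 60 replicate 1 (adjusted p 0.065, 0.074, 0.077 and 0.16) and in limma-voom (0.094). Its exons overlap LMBRD1 on the other strand, and the neighbour COL9A1, 5085 bp away and facing it, did not pass.
COL14A1, which lies on the surface of fibrils, was at 13.0 ± 3.17, 19.2 ± 7.14 and 83.7 ± 37.2 CPM on the 3 days, a rise of 2.13 ± 0.32 from Day 60 (adjusted p 0.00022). COL21A1 was the gene of the group that fell over the whole course, from 114 ± 13.9 to 67.5 ± 5.65 CPM (-0.75 ± 0.12, adjusted p 0.00012). Its fall from Day 60 to Day 113 (-0.42 ± 0.12, adjusted p 0.021) was lost without Day 60 replicate 2 or 3 or Day 113 replicate 4 (adjusted p 0.079, 0.096 and 0.053).

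Cartilage-type collagens did not move as a group. Of the 7 genes, 2 rose and 1 fell from Day 30 to Day 60, 2 fell from Day 60 to Day 113, and 1 rose and 2 fell over the whole course. The shares called were 42.9%, 28.6% and 42.9%, beside 10.3%, 24.0% and 34.5% of all genes, so the later 2 lay near those of all genes. COL2A1 (chromosome 12, 47972965 to 48004554, minus strand) is the gene of type II, the main fibril of cartilage, which is also made by several embryonic tissues. It was read at 804, 695, 642 and 611 CPM at Day 30, 184, 173 and 146 CPM at Day 60 and 24.0, 24.6, 27.5 and 45.3 CPM at Day 113. The 3 days were far apart, and the log2 fold change was -2.04 ± 0.19 for the first interval (adjusted p 1.2e-05), -2.47 ± 0.19 for the second (adjusted p 8.8e-07) and -4.51 ± 0.19 over the whole course (adjusted p 2.6e-10). At Day 30 it stood at 103 CPM per kb, above COL5A1 (56.6), and at Day 113 at 4.55. The 2 steps did not differ beyond their error (difference of log2 fold changes -0.43 ± 0.32, adjusted p 0.45).
COL11A1, which joins type II in cartilage fibrils and type V elsewhere, was read at 51.4, 62.3, 77.0 and 44.0 CPM at Day 30, 44.8, 74.7 and 72.2 CPM at Day 60 and 10.9, 22.5, 37.1 and 41.8 CPM at Day 113. It fell from Day 60 to Day 113 (-1.19 ± 0.32, adjusted p 0.014), and without Day 60 replicate 2 or 3 this was not called (adjusted p 0.056 and 0.059), nor with robust dispersions (0.076). Its fall over the whole course (-1.07 ± 0.31, adjusted p 0.013) was also lost with robust dispersions (0.07).
Type IX collagen sits on type II fibrils, and its genes went the other way in the first interval. COL9A2 (chromosome 1, 40300487 to 40317813, minus strand) was read at 2.83, 9.27, 11.7 and 2.61 CPM at Day 30, 30.3, 64.8 and 50.6 CPM at Day 60 and 2.94, 37.6, 49.9 and 52.3 CPM at Day 113. It rose by 2.87 ± 0.66 to Day 60 (adjusted p 0.01) and by 2.42 ± 0.63 over the whole course (adjusted p 0.0068). Day 113 replicate 1 was back at the Day 30 level, at 2.94 CPM against 37.6 to 52.3 CPM in the other 3 wells. Both calls were lost with robust dispersions (adjusted p 0.09 and 0.06) and in limma-voom (0.063 and 0.14).
COL9A3 was read at 9.55, 13.5, 15.6 and 7.49 CPM at Day 30, 19.2, 44.6 and 28.7 CPM at Day 60 and 6.49, 17.0, 21.6 and 22.7 CPM at Day 113, and rose to Day 60 (1.42 ± 0.36, adjusted p 0.018). This call was lost without Day 30 replicate 1 or 4 or Day 60 replicate 2 (adjusted p 0.058, 0.052 and 0.11) and with robust dispersions (0.074), and an antisense neighbour, TCFL5, overlaps its exons. COL9A1 was higher at Day 60 than at Day 30 in every well (23.4 ± 2.73 against 12.6 ± 1.31 CPM) but was not called (0.89 ± 0.31, adjusted p 0.091). COL10A1, a product of cartilage cells that have enlarged, was scarce throughout (1.58 ± 0.357, 3.34 ± 1.31 and 1.56 ± 0.571 CPM) and was not called.

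**Figure D5:**
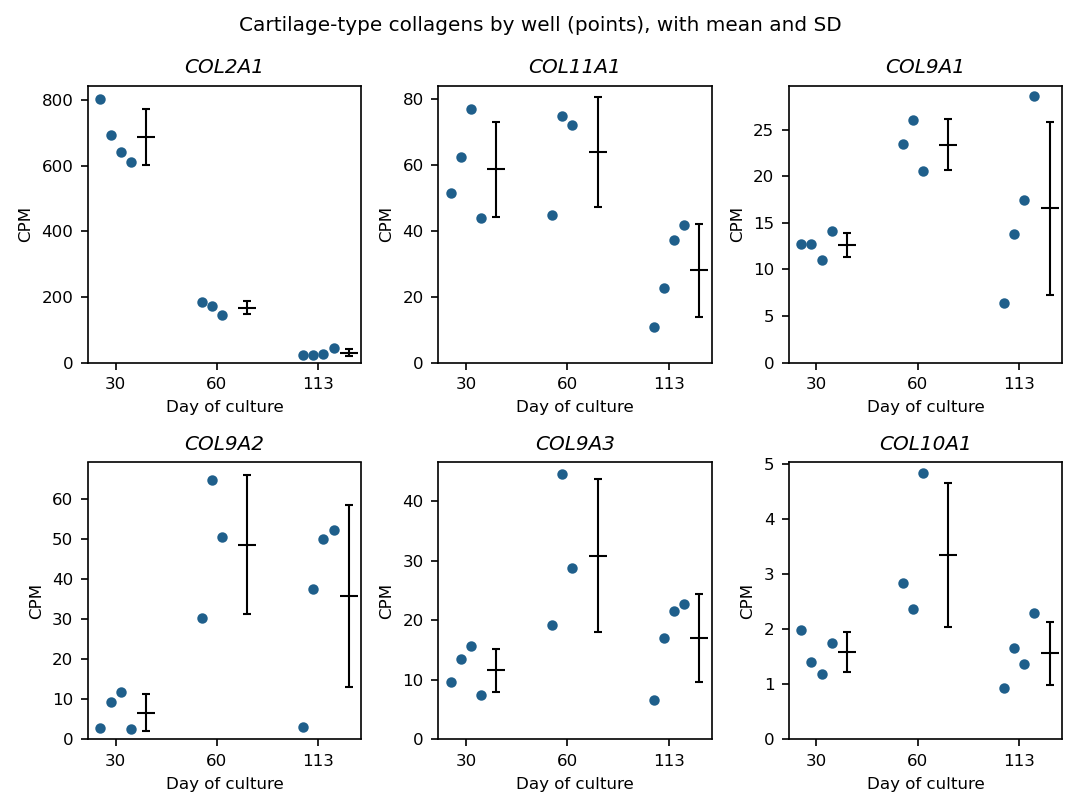
Points give CPM of 6 cartilage-type collagen genes in each well by day of culture, 1 panel per gene on a linear axis from 0, with the mean and SD of each day (n = 4, 3 and 4). COL2A1 falls at each step, the type IX genes are on average highest at Day 60, and Day 113 replicate 1, the leftmost Day 113 point, is the lowest Day 113 well for all of them.

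Other genes of cartilage did not follow COL2A1 as a set. Of 10 measured genes of a cartilage list, 2 rose and 3 fell over the whole course, beside 17.3% and 17.2% of all genes. SOX9, a regulator of type II collagen in cartilage, was read at 16.9, 31.3, 31.1 and 14.5 CPM at Day 30, 5.36, 9.80 and 8.33 CPM at Day 60 and 25.1, 12.8, 19.6 and 16.4 CPM at Day 113, lower at Day 60 than on either other day. HAPLN1, which links aggrecan to hyaluronan, fell from 42.2 ± 10.0 to 10.5 ± 2.64 CPM (-2.00 ± 0.20, adjusted p 2.3e-06), and SNORC, a membrane proteoglycan of cartilage, fell from 3.27 ± 1.03 to 1.44 ± 0.462 CPM (-1.18 ± 0.34, adjusted p 0.014). ACAN, the core protein of aggrecan, had 0 counts in all 7 wells of Day 30 and Day 60 and 5.63, 0.900, 0.998 and 0.883 CPM at Day 113, which was at least 20.2-fold above Day 30. The summed level of 7 measured chondrocyte markers was 57.5 to 73.5 CPM at Day 30, 29.6 to 32.2 at Day 60 and 20.0 to 28.0 at Day 113. On average HAPLN1 made up most of it at Day 30 but not at Day 113. The part of these markers in the fall of COL2A1 was not tested.

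Among transmembrane collagens, COL17A1 nearly vanished after Day 30. COL17A1 (chromosome 10, 104031286 to 104085957, minus strand) encodes a collagen of the junction by which epithelial cells hold to their membrane, and was read at 44.4, 123, 87.4 and 29.6 CPM at Day 30, 1.88, 1.92 and 2.02 CPM at Day 60 and 0.722, 1.09, 0.0856 and 0.883 CPM at Day 113. Every Day 30 well was at or above 29.6 CPM and every later well at or below 2.02 CPM. The fall to Day 60 was -5.19 ± 0.51 (adjusted p 1.7e-05), the largest of any collagen gene, and -6.73 ± 0.51 over the whole course (adjusted p 1.1e-07). The summed endoderm and hepatic markers at Day 30 were 1243, 1324, 1001 and 448 CPM against COL17A1 values of 44.4, 123, 87.4 and 29.6 CPM in the same wells, and their part was not tested.
COL23A1, a cell-surface collagen that binds integrins, was read at 31.4, 23.8, 29.7 and 18.4 CPM at Day 30, 28.4, 33.9 and 25.6 CPM at Day 60 and 11.7, 17.4, 11.9 and 16.5 CPM at Day 113 and fell from Day 60 to Day 113 (-1.03 ± 0.19, adjusted p 0.0013). COL25A1, first known from amyloid plaques and needed for motor nerve contact with muscle, rose over that interval from 7.89 ± 2.40 to 16.9 ± 6.45 CPM (1.10 ± 0.30, adjusted p 0.013, lost without Day 60 replicate 3 at 0.075). COL13A1, a collagen of the nerve-muscle junction, was not called (6.99 ± 0.957, 5.35 ± 1.88 and 4.73 ± 0.877 CPM).
The short-chain genes gave 1 call in the first interval, for COL8A2, a chain of network collagen made by endothelium and cornea, read at 0.955, 2.23, 1.25 and 0.859 CPM at Day 30, 3.93, 8.88 and 4.92 CPM at Day 60 and 1.67, 6.34, 11.5 and 9.47 CPM at Day 113. It rose to Day 60 (2.15 ± 0.51, adjusted p 0.013), which was lost without Day 60 replicate 2 (0.068) and in limma-voom (0.11). COL8A1, its partner chain, kept between 15.5 and 45.3 CPM in all wells. Of the remaining genes, COL26A1 fell over the whole course from 7.92 ± 1.74 to 1.87 ± 1.70 CPM (-2.08 ± 0.59, adjusted p 0.012), and COL28A1 was at or below 1.22 CPM in every well.

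The difference between the 2 intervals was tested in the same fit, and both intervals use the Day 60 wells. It passed for 11 of 41 collagen genes (9.34% of all genes), 9 with a higher change in the second interval (4.97% of all genes) and 2 with a lower one (4.38%). The 9 were COL1A1 (2.99 ± 0.62, adjusted p 0.0074), COL1A2 (2.94 ± 0.63, 0.009), COL3A1 (2.24 ± 0.57, 0.022), COL5A1, COL12A1 (3.40 ± 0.62, 0.0035), COL4A1 (1.68 ± 0.42, 0.02), COL4A4, COL15A1 and COL17A1. The 2 were COL9A3 (-2.28 ± 0.60, adjusted p 0.027) and COL23A1 (-1.21 ± 0.33, adjusted p 0.033). The count was 5, 6 and 2 without Day 60 replicate 1, 2 and 3. Each omission also leaves fewer wells of the day that enters both intervals, which lowers the power of the test. The loss of power and the part of the omitted well cannot be told apart.

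Genes that build, export and bind collagen were taken from lists of known roles, and their counts over the whole course stand beside 17.3% of all genes higher and 17.2% lower. Of 20 genes that modify and fold the chains, 2 rose and 7 fell (45.0% called, beside 34.5% of all genes). P3H2, a prolyl hydroxylase with a preference for type IV, was read at 101, 112, 105 and 95.8 CPM at Day 30, 87.2, 82.5 and 86.0 CPM at Day 60 and 29.5, 34.9, 42.6 and 37.7 CPM at Day 113 and fell (-1.51 ± 0.11, adjusted p 5.3e-08). P3H4, part of a complex that hydroxylates lysine in the chains, fell from 85.1 ± 7.74 to 34.1 ± 4.00 CPM (-1.32 ± 0.12, adjusted p 9.7e-07), and P4HA3, a scarce prolyl hydroxylase subunit, rose from 0.160 ± 0.122 to 2.23 ± 0.999 CPM (3.75 ± 0.75, adjusted p 0.0011). SERPINH1, the collagen chaperone HSP47, was not called in any comparison and is named outside the rule for its role (389, 273 and 368 CPM on average).
Of 12 genes of export and processing, 3 rose and 3 fell, shares not far from those of all genes. ADAMTS14, which removes the N-propeptide of fibrillar procollagen, rose from 24.1 ± 2.33 to 48.3 ± 1.45 CPM (1.00 ± 0.10, adjusted p 2.1e-06). TLL2, a relative of the C-proteinase BMP1, rose (1.53 ± 0.51, adjusted p 0.03), and MIA2, an export factor, fell (-0.52 ± 0.14, adjusted p 0.0097).
Of 8 measured receptors, 3 rose and 1 fell over the whole course. DDR2, a receptor kinase for fibrillar collagen, was read at 5.04, 9.27, 6.32 and 5.50 CPM at Day 30, 12.9, 8.70 and 10.7 CPM at Day 60 and 43.8, 19.5, 39.9 and 24.3 CPM at Day 113 and rose (2.29 ± 0.26, adjusted p 6.8e-06). ITGA11 and ITGA10, integrin chains that bind collagen, rose by 1.55 ± 0.26 and 2.46 ± 0.37 (adjusted p 0.00023 and 8.9e-05).
Small proteoglycans and other fibril-binding proteins had the highest share of calls of these lists, with 6 of 8 measured genes higher and 1 lower (median log2 fold change 2.17). OGN, osteoglycin, was read at 0, 0.0667, 0.757 and 0.687 CPM at Day 30, 5.94, 3.61 and 4.45 CPM at Day 60 and 52.9, 18.3, 31.4 and 33.0 CPM at Day 113, and ASPN, asporin, at 4.16, 6.54, 6.78 and 4.29 CPM at Day 30, 33.2, 36.3 and 34.0 CPM at Day 60 and 88.8, 87.4, 103 and 83.6 CPM at Day 113. Neither gene's days overlapped, and the rises over the whole course were 6.44 ± 0.55 (adjusted p 3.6e-07) and 4.05 ± 0.16 (adjusted p 8.4e-11). BGN, biglycan, rose by 3.85 ± 0.43 (adjusted p 5.6e-06).

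Wells of 1 day could differ widely. The highest COL1A1 well of a day was 2.22 times the lowest at Day 30, 1.79 times at Day 60 and 2.71 times at Day 113, while for COL4A6 these ratios were 1.22, 1.12 and 1.25. Over 37 collagen genes with a mean of at least 1 CPM at Day 113, replicate 1 held the highest value for 19 (28.2% of all such genes were highest there). The same well held the lowest value for 11 (25.7% of all genes), and replicate 4 for 16 (25.6%). At Day 60 replicate 3 was lowest for 24 of 37 (38.1% of all genes), and at Day 30 replicate 4 for 23 of 37 (27.6%). Collagen genes thus shared differences between wells and are not independent of each other.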

How the data were processed

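The labels' protocols describe poly(A)-selected libraries of 11 wells, read in pairs of 150 bp on an Illumina NovaSeq. The authors deposited whole-number read counts per gene symbol, made with STAR 2.5.3a and featureCounts 2.0.3 on hg38, per the submitters' processing notes; annotation and strand setting are not given in the sources used here. The deposited TPM table was not used, because the gene lengths it implies (count divided by TPM) did not repeat between libraries (median Spearman rho across 11210 genes -0.002 over 55 library pairs).

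Counts were tested with edgeR 4.0.16 (quasi-likelihood F-test, TMM scaling, filterByExpr with a minimum count of 10, which removed no gene) in R 4.3.3, with all 11 libraries in 1 fit and day as the only factor. Adjustment was by Benjamini-Hochberg over 19990 genes, with a threshold of 0.05. The SE of a fold change was its size on the log2 scale over the root of F. The labels name the wells as replicates of 1 differentiation, so p-values measure the spread between these wells. CPM used TMM library sizes of 24.1 to 34.5 M counts, and 3 counts was taken as the limit that a count of 0 allows, for counting error only, since no molecular identifiers were used. CPM per kb used the union of annotated exons (GENCODE v29, GRCh38), and annotated coordinates come from there. Chain ratios used a pseudocount of 0.5 and exact permutation tests (two-sided), adjusted together as 12 tests. Of the 41 collagen genes, 12 have exons that overlap another annotated gene, 4 of them one in the table.

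Collagen members and gene lists were chosen with earlier results of these data known. Genes given in full were the 2 most abundant of each class, the 4 highest and 4 lowest called fold changes of each pair of days (mean of at least 1 CPM in the higher group) and the members of the ratios, 29 genes. Every other collagen gene called is named too. From each pathway list, the 3 called genes with the largest whole-course change are named. TNNT2, PECAM1, VWF, POSTN, PDGFRA, SOX9 and SERPINH1 are named outside these rules, after their values were seen. Alternatives were upper-quartile and DESeq2 size factor scaling, robust dispersions, no filter, a mean of at least 1 CPM, an adjusted p under 0.01, a log2 change of at least 1, a replicate block, each well left out, DESeq2 1.42.0 and limma-voom (limma 3.58.1), and for ratios a pseudocount of 5. The setting with no filter repeats the main fit, since the filter removed no gene, and could change no call. The edgeR step was tested on simulated data.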

Additional observations from a re-analysis of the deposited data

Results flagged for a closer look

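Of 76 sets of 4 wells checked (34 genes and 4 chain ratios at Day 30 and Day 113), 2 held a well set apart from the other 3 by more than the 95% limit of Dixon's test, which chance gives for about 1 set in 20. COL2A1 read 45.3 CPM in Day 113 replicate 4 and 24.0 to 27.5 CPM in the other wells of that day. COL4A3 read 0.173 CPM in Day 113 replicate 1 and 1.54 to 1.71 CPM in the others. Leaving out any 1 well kept the fall of COL2A1 over the whole course between -4.76 and -4.41 on the log2 scale.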

How the results depend on the processing

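The counts of collagen genes called from Day 60 to Day 113 (21) and from Day 30 to Day 113 (23) stayed within 1.5 times under all 21 alternatives, with 19 to 23 and 22 to 26 calls when single wells were left out. The setting with no filter, counted among the 21, could not move them. The count of 13 from Day 30 to Day 60 was 6 at an adjusted p under 0.01 and 9 to 19 without single wells. The count of 11 for the difference between the intervals was 5 with robust dispersions, 4 at an adjusted p under 0.01, 17 in DESeq2 and 2 to 16 without single wells (5, 6 and 2 without Day 60 replicate 1, 2 and 3).

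With the replicate number as a block, 20 collagen genes were called from Day 30 to Day 60 (6 higher, 14 lower) and 19 for the difference between the intervals. Same-numbered wells of different days correlated at 0.0227 to 0.0761 in their deviations over 10 pairs, against -0.0779 to 0.0688 for differently numbered wells. The numbers were not taken to pair the wells only because every value lay below the 0.1 set as required. In 17 of 20 comparisons the own number was highest, so a pairing is not excluded, and the counts with the block stand beside those without.

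Of 57 called fold changes among 34 collagen genes, 40 were called under all 18 or 19 alternatives that refitted or rescaled the data or left out a well, and 17 were lost under at least 1, as given beside them. The setting with no filter, counted among these alternatives, could lose no call. Of the 57, 40 had an adjusted p under 0.01, 42 a log2 change of at least 1 in size, and 28 met both and were never lost. Values near 0 turned sign under some settings, and none of these was called. For Day 60 against Day 30, COL6A3 was -0.35 with the block and -0.063 in limma-voom, and ran from -0.50 to 0.41 without single wells (-0.065 without Day 30 replicate 1, -0.25 without Day 30 replicate 4). The same ranges were -0.0042 to 0.35 for COL11A1, -0.18 to 0.51 for COL28A1 (-0.013 without Day 30 replicate 4) and -0.42 to 0.12 for COL8A1. For Day 113 against Day 60, COL4A3 was -0.086 in limma-voom and COL8A2 ran from -0.024 to 0.71 without single wells. Over the whole course the ranges were -0.093 to 0.36 for COL4A1 and -0.066 to 0.17 for COL6A1. No chain ratio was called in the main test or under any alternative. With the replicate block there were too few pairs of wells for a p under 0.05. Leaving out a well of either day had the same effect on every comparison with Day 60. The lack of change under these settings therefore does not show that the ratio results are stable. Depth limits the scarcest genes, such as COL24A1, COL11A2 and COL28A1, whose wells hold few counts. The causes were not tested.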
